A study of Homo sapiens with 6 samples.

Results

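The genes described here are 8 genes of the aryl hydrocarbon receptor pathway: the receptor AHR, its partner ARNT, its repressor AHRR, and the target genes CYP1A1, CYP1A2, CYP1B1, TIPARP and ALDH3A1. They were taken by symbol, whatever their values, as all probe sets that the platform's gene table assigns to exactly 1 of these symbols. This gave 22 probe sets of the 49395 on the array, with 5 for ARNT, 5 for CYP1B1, 3 for AHR, 2 each for AHRR, CYP1A1, CYP1A2 and TIPARP, and 1 for ALDH3A1. A probe set is a group of short probes that together report 1 transcript region. Expression was measured on 6 Affymetrix PrimeView arrays of cells labelled HCT-116, an established human colorectal carcinoma line grown in RPMI medium with fetal bovine serum. The labels describe all 6 samples as high in Aurora-A and PLK-1. The 3 control arrays are of cells given the vehicle DMSO, and the other 3 are of cells given the compound coded AAPK, which the series title describes as a dual inhibitor of those kinases. The treatment label reads 10 µM and 48 h for all 6 samples, and the dose is taken here as that of AAPK. The comparison asks whether the small molecule induced genes that sense foreign chemicals; no array of a known receptor ligand was analysed here.

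AHR is a ligand-activated transcription factor of the bHLH-PAS family that waits in the cytosol with HSP90 and co-chaperones. Planar aromatic chemicals, tryptophan metabolites and many synthetic drugs bind it, after which it enters the nucleus, pairs with ARNT and binds xenobiotic response elements with the core GCGTG. The CYP1 monooxygenases are its classical targets and serve as the usual readout of receptor activation, in intestinal epithelium as in liver. AHRR and TIPARP are induced by the receptor and restrain it.

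RefSeq promoter windows, each from 250 bases before a gene's start to 50 after it, were held for 6 of the 8 genes: AHR, ARNT, AHRR, CYP1A1, CYP1A2 and TIPARP. The 250 bases upstream of the start are shown for 3 genes that the receptor induces in many cells, because their signals are the direct readout of the question asked. Letters run 5′ to 3′ on the gene's strand in assembly GRCh38.p14, and capitals mark GCGTG on either strand (on the opposite strand it reads CACGC). The CYP1A1 stretch is chr15:74725529-74725778 on the minus strand, the AHRR stretch chr5:321464-321713 on the plus strand, and the TIPARP stretch chr3:156674340-156674589 on the plus strand.
CYP1A1: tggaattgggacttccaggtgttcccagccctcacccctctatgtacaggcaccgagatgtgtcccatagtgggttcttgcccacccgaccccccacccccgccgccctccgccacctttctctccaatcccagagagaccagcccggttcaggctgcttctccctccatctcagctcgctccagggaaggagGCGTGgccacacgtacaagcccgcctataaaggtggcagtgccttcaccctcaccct
AHRR: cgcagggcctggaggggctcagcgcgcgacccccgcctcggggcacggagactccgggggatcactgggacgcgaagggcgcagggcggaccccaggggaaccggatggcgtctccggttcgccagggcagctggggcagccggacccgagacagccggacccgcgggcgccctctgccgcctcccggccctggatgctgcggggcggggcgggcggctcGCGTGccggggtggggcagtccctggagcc
TIPARP: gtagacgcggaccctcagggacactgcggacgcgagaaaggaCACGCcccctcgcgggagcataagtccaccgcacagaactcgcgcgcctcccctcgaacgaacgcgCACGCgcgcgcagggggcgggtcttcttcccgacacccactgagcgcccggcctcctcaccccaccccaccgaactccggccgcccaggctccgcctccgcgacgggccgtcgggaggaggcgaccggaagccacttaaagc

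Counting the base before the start as -1, GCGTG began at -57 in CYP1A1 and at -30 in the first of 2 AHRR windows, the one shown. The second AHRR window held it at -247 and -42. Its opposite-strand form began at -208 and -142 in the first of 3 TIPARP windows, and the other 2 TIPARP windows did not hold it. The match in the first AHRR window was also the only match among the 9 member windows to the longer TNGCGTG, which contains GCGTG. Windows of 4 of the 6 genes held GCGTG, the fourth being AHR, with a match at 38 after the start; the windows of ARNT and CYP1A2 did not. GCGTG was common: 5 of the 9 member windows and 36.5% of all 35116 promoter windows held it on either strand. TNGCGTG was held by 1 of the 9 and by 5.51% of all windows. A match is a run of letters in this window and was not tested as a binding site.

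The arrays were alike in overall brightness. Median log2 signal lay between 6.46 and 6.50, and Pearson correlations over all probe sets reached 0.998 among arrays of 1 group and ran from 0.994 to 0.995 across groups. The markers of the labelled line were not all bright. The 3 probe sets of EPCAM, an epithelial surface protein that HCT-116 is known to carry, read 3.20 to 3.52 on the 6 arrays, and at most 2.45% of the probe sets on the array were dimmer. The highest reading of CDH1 (E-cadherin) was 5.15 and that of KRT19 was 5.07, whereas the keratin genes KRT8 and KRT18 read 10.4 to 12.6. The tight-junction gene CLDN7 read 5.93 to 6.15, and the 3 probe sets of CLDN4 ran from 4.79 to 8.91, the brightest of them above 89.7% of the probe sets on the array. Of genes looked at only after these values were seen, VIL1 (villin) read at most 4.33 and CDH17 at most 6.41, while CAV1 (caveolin) read 8.51 to 10.4, VIM (vimentin) read 12.1 to 12.6 and KRT7 10.9 to 11.1. The readings of EPCAM, CDH1 and KRT19 go against the label in DMSO and AAPK alike, whereas those of KRT8, KRT18 and the brightest CLDN4 probe set do not, so the cells are called here by their label only. With 1 probe set per gene, 1 of the 7 epithelial markers passed, KRT8, which rose by 0.17 (limma adjusted p = 0.0402 over genes, and 0.0569 for the same probe set over all single-symbol probe sets); its part in the results below was not tested. Of 19 measured markers of fibroblasts, endothelium, blood and liver, 0 passed limma's threshold and 3 had an unadjusted p under 0.05. Their mean signals ran from 3.25 to 8.47, so a probe set's brightness does not by itself show that its transcript was present.

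None of the 3 CYP1 genes passed the test as higher or lower in AAPK on any of its probe sets. Of 9 CYP1 probe sets, 0 passed limma's test in either direction (Benjamini-Hochberg adjusted p threshold 0.05 over 44988 single-symbol probe sets) and 0 had an unadjusted p under 0.05; 12.9% of all single-symbol probe sets passed. The log2 changes of the 9, AAPK minus DMSO, ran from -0.14 to 0.051, and 7 of the 9 were below 0. The highest upper limit of a 95% interval among them was 1.15-fold. In a culture measured in bulk, a change in the number of expressing cells and a change per cell cannot be told apart.

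CYP1A1, the classical inducible target, read 6.71, 6.75 and 6.71 log2 units in DMSO and 6.71, 6.72 and 6.69 in AAPK with its brighter probe set, 11754154_a_at. The groups overlapped, and every reading lay within 0.1 of the others. The change was -0.018 ± 0.045 (SE, n = 3 per group; limma adjusted p = 0.867), with a 95% interval of 0.921- to 1.06-fold. The second CYP1A1 probe set, 11726536_at, read 6.38, 6.43 and 6.41 in DMSO and 6.38, 6.38 and 6.38 in AAPK. It too overlapped, with a change of -0.022 and an interval of 0.919- to 1.06-fold. Any rise above 1.06-fold on the scale of these signals lies outside both intervals.

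CYP1A2, a close paralog that lies head to head with CYP1A1 and is known mainly from liver, had 2 probe sets of very different brightness. The brighter, 11732108_x_at, whose suffix marks probes that may also bind other transcripts, read 9.57, 9.61 and 9.55 in DMSO and 9.53, 9.55 and 9.52 in AAPK. The change was -0.040 ± 0.046 (limma adjusted p = 0.671). The dimmer, 11732107_a_at, read 5.41, 5.24 and 5.08 in DMSO and 5.28, 5.16 and 5.17 in AAPK, a change of -0.038, with the widest interval of all 22 probe sets (0.863- to 1.10-fold). The groups overlapped on both.

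CYP1B1, the family member most often expressed outside the liver, was read by 5 probe sets, all with the suffix s_at, which marks probes shared between transcripts. The brightest, 11720410_s_at, read 8.84, 8.85 and 8.83 in DMSO and 8.89, 8.87 and 8.85 in AAPK. The lowest AAPK reading, 8.853, lay just above the highest DMSO reading, 8.852, and the change, 0.026 ± 0.045, did not pass (limma adjusted p = 0.787). On 11720411_s_at the order was the opposite: 8.06, 8.10 and 8.26 in DMSO against 8.06, 7.97 and 7.99 in AAPK, all AAPK arrays below all DMSO arrays, with a change of -0.13 ± 0.061 (limma adjusted p = 0.214). The lowest change was -0.14 on 11747104_s_at, which read 6.40, 6.35 and 6.40 in DMSO and 6.28, 6.37 and 6.09 in AAPK; the groups overlapped there (limma adjusted p = 0.240). The last 2 probe sets, 11720409_s_at and 11745721_s_at, had changes of -0.049 and 0.051 and overlapping groups. The CYP1B1 probe sets thus differed in sign, and no change among them passed the test.

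**Figure D1:**
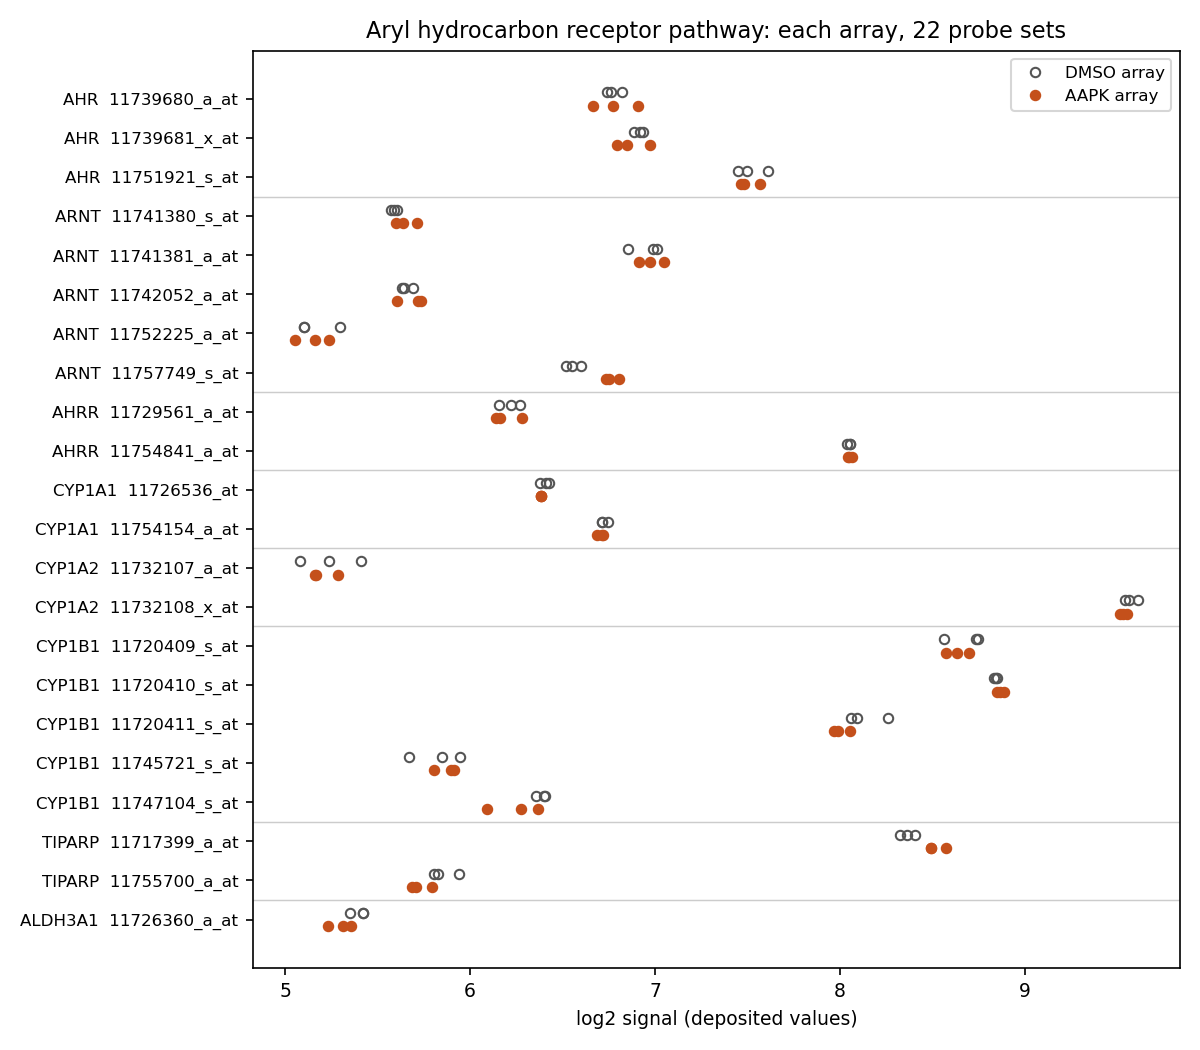
Log2 signal (x axis) of each of the 22 probe sets of the 8 genes on each array; open circles are the 3 DMSO arrays and filled circles the 3 AAPK arrays, and grey lines part the genes. The 2 groups lie on top of each other for most probe sets, such as both of CYP1A1, and stand apart for ARNT 11757749_s_at and for TIPARP 11717399_a_at, where all AAPK arrays are higher. They also do not overlap for CYP1B1 11720410_s_at, with AAPK just higher, and for CYP1B1 11720411_s_at and TIPARP 11755700_a_at, with AAPK lower.

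ALDH3A1, an aldehyde dehydrogenase that the receptor induces in liver and in some tumour lines, was read by 1 probe set. It read 5.42, 5.35 and 5.42 in DMSO and 5.31, 5.36 and 5.23 in AAPK. The groups overlapped, and the change was -0.096 ± 0.052 (limma adjusted p = 0.297; 95% interval 0.864- to 1.01-fold).

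AHRR and TIPARP are the 2 feedback genes of the receptor. AHRR, the repressor that competes with AHR for ARNT, read 8.04, 8.05 and 8.05 in DMSO and 8.05, 8.05 and 8.07 in AAPK on its brighter probe set, 11754841_a_at. The groups overlapped and the change was 0.0046 ± 0.044 (limma adjusted p = 0.970), with an interval of 0.937- to 1.07-fold. The dimmer probe set, 11729561_a_at, read 6.16, 6.22 and 6.27 in DMSO and 6.16, 6.14 and 6.28 in AAPK, a change of -0.024.

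TIPARP, an ADP-ribosyltransferase that modifies AHR and limits its activity, had 2 probe sets with changes of opposite sign. The brighter, 11717399_a_at, read 8.36, 8.33 and 8.40 in DMSO and 8.49, 8.49 and 8.57 in AAPK, so that all AAPK arrays were higher, by 1.11-fold (log2 change 0.15 ± 0.050). The dimmer, 11755700_a_at, read 5.94, 5.80 and 5.82 in DMSO and 5.68, 5.71 and 5.79 in AAPK, all AAPK arrays lower, with a change of -0.13 ± 0.055. Over all single-symbol probe sets neither passed (limma adjusted p = 0.0701 and 0.184; unadjusted p = 0.0105 and 0.0434). With 1 probe set per gene, the brightest, TIPARP was just past the threshold (limma adjusted p = 0.04995 over 18132 genes). That call was lost whichever array was left out (limma adjusted p 0.0610 to 0.137), with quantile normalisation (adjusted p = 0.0895), and with the mean of both probe sets, where the change was 0.014. Leaving out single arrays also cut the calls over all genes, from 2788 to between 1921 and 2450.

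The gap between the 2 TIPARP probe sets, taken within each array, was 2.43, 2.52 and 2.58 log2 units in DMSO and 2.81, 2.78 and 2.78 in AAPK. It was wider in AAPK by 0.28, on all 3 arrays. The two-sided exact permutation p was 0.1, the smallest that 3 arrays against 3 allow, and the gap was examined after the values had been seen. All AAPK arrays were higher on the brighter probe set and lower on the dimmer, so the gap had to part the groups. This p was thereby fixed and adds no support. Genes named by the likeness rule for TIPARP were EMC7, STK26 and PUDP: each, centred on its own mean, differed from the brighter TIPARP probe set by a root mean square of 0.013, 0.013 and 0.014 log2 units over the 6 arrays, the smallest among 9061 genes of above-median signal. Their own changes were 0.17, 0.16 and 0.16, near that of TIPARP because they were chosen for likeness to it. A shared regulation was not tested.

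AHR itself did not pass the test on any of its 3 probe sets. Its brightest probe set, 11751921_s_at, read 7.45, 7.50 and 7.61 in DMSO and 7.48, 7.46 and 7.57 in AAPK. The groups overlapped fully, with a change of -0.015 ± 0.057 (limma adjusted p = 0.919). The other 2 probe sets had changes of 0.0081 and -0.042. The intervals of all 3 lay between -0.17 and 0.15 on the log2 scale.

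ARNT, the shared partner of AHR and of the hypoxia-inducible factors, gave the single call among the 22 probe sets. Probe set 11757749_s_at read 6.55, 6.60 and 6.52 in DMSO and 6.75, 6.81 and 6.73 in AAPK. All AAPK arrays were higher, and the signal rose 1.15-fold (log2 change 0.21 ± 0.049, n = 3 per group, limma adjusted p = 0.0182). The adjusted p rose above 0.05 without DMSO replicate 1 (0.0675), DMSO replicate 3 (0.0631), AAPK replicate 1 (0.0544) or AAPK replicate 2 (0.0700), with changes of 0.19 to 0.21. Without these arrays, calls over all single-symbol probe sets fell as well, from 5824 to between 3970 and 4740. The 4 other ARNT probe sets did not pass: their log2 changes ran from -0.016 to 0.063, their groups overlapped, and their limma adjusted p were 0.496 or higher. The brightest of them, 11741381_a_at, read 6.99, 7.01 and 6.85 in DMSO and 6.92, 7.05 and 6.97 in AAPK. Within each array, 11757749_s_at stood above the mean of the other 4 by 0.72, 0.70 and 0.73 in DMSO. In AAPK it stood above that mean by 0.87, 0.98 and 0.84, a difference of 0.18. The two-sided exact permutation p was 0.1, the smallest possible, and the difference was examined after the values had been seen. The probe set was chosen because it had passed, so this p adds no support.

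**Figure D2:**
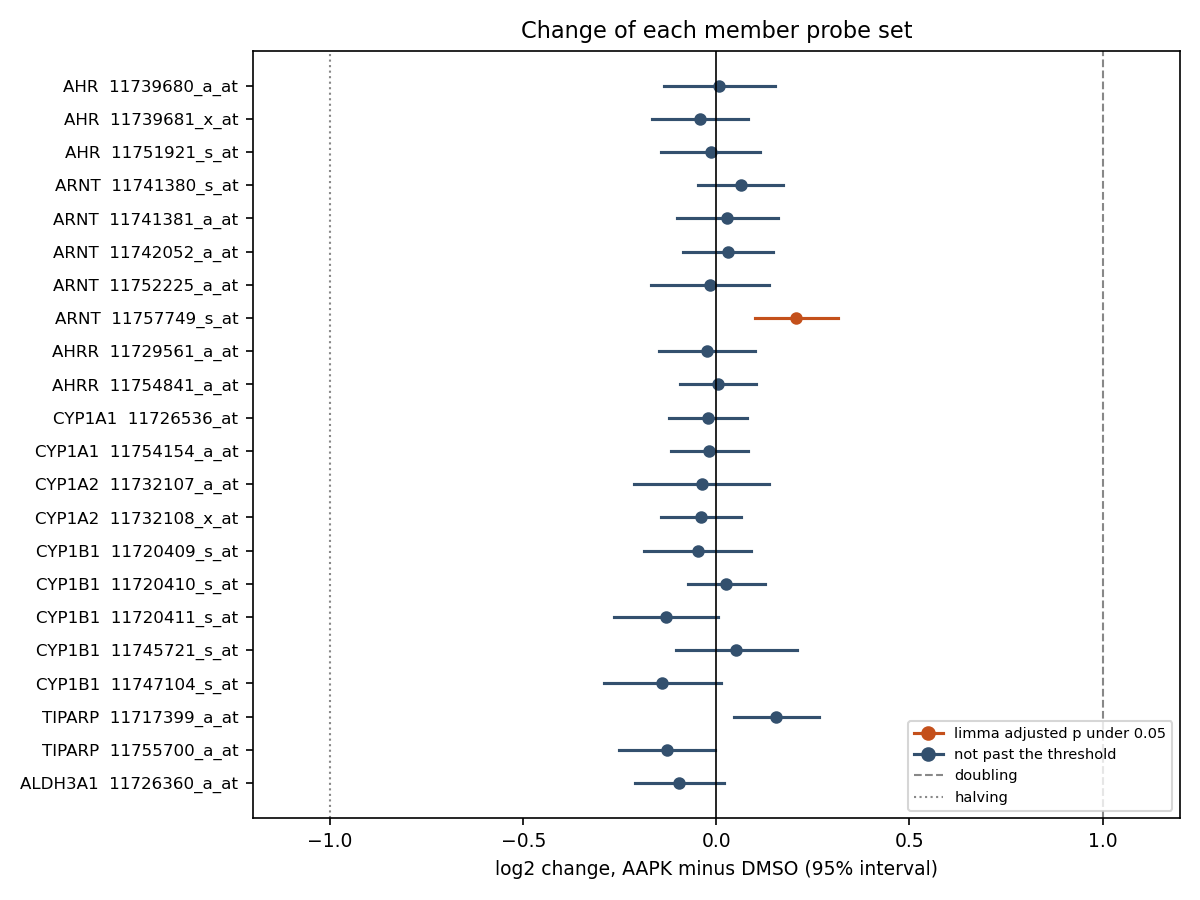
Log2 change, AAPK minus DMSO (x axis), of each of the 22 probe sets, with its 95% interval from limma; the dashed line marks a doubling and the dotted line a halving. All intervals lie between a 0.818-fold and a 1.24-fold change, and the one probe set past the adjusted threshold is ARNT 11757749_s_at, at 0.21.

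The counts for the 8 genes are set here beside those for the array as a whole. Of the 22 probe sets 1 was called, 4.55%, where 12.9% of all 44988 single-symbol probe sets were; it was higher, as were 7.13% of all. In 5 of 22 the 2 groups did not overlap, 22.7%, where 29.6% of all probe sets did not. These were ARNT 11757749_s_at, TIPARP 11717399_a_at and CYP1B1 11720410_s_at with AAPK above, and CYP1B1 11720411_s_at and TIPARP 11755700_a_at with AAPK below. The median log2 change over the 22 probe sets was -0.017, beside -0.011 for all single-symbol probe sets. With 1 probe set per gene, 1 of 8 genes was called, TIPARP, where 15.4% of 18132 genes were; it was higher, as were 8.11% of all genes. The highest upper limit of any of the 22 intervals was 1.24-fold and the lowest lower limit 0.818-fold.

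**Figure D3:**
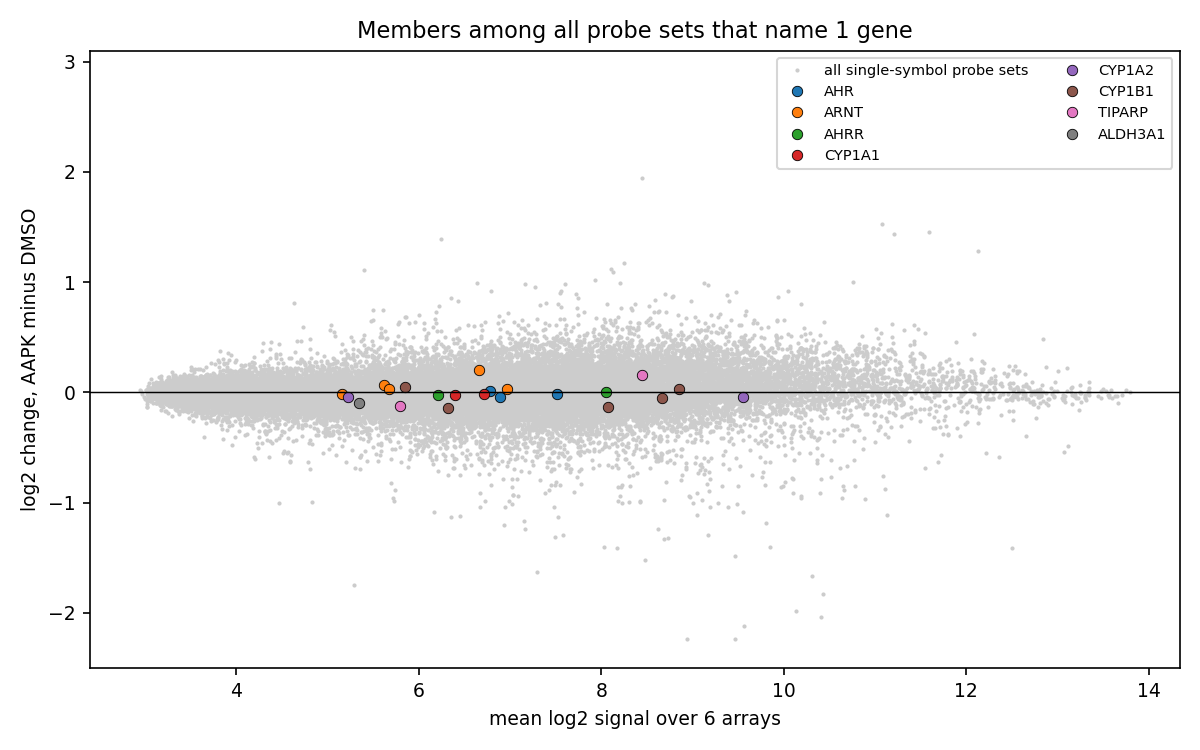
Mean log2 signal over the 6 arrays (x axis) against log2 change, AAPK minus DMSO (y axis), for all 44988 single-symbol probe sets in grey and the 22 probe sets of the 8 genes in colour. The coloured points span dim to bright probe sets, from 5.16 to 9.55 in mean signal, and lie between -0.14 and 0.21.

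Around the receptor, 3 cytosolic chaperone genes were higher in AAPK and 3 nuclear coactivator genes lower. Of 11 measured genes of the chaperone complex and coactivators, 3 rose, 3 fell and 5 did not pass (54.5% called, beside 15.4% of all genes), with a median log2 change of -0.091 (-0.016 over all genes). These genes were bright, with a median signal percentile of 81.7 among the probe sets, so the share of all genes is not matched for brightness. HSP90AA1, the inducible HSP90 that holds AHR in the cytosol, read 9.99, 9.98 and 10.06 in DMSO and 10.52, 10.52 and 10.41 in AAPK, and rose 1.39-fold (limma adjusted p = 1.58e-04). HSP90AB1, the constitutive form, rose 1.35-fold (limma adjusted p = 1.66e-04). EP300, a histone acetyltransferase that acts as a coactivator, fell by 0.30 on the log2 scale (limma adjusted p = 0.00361). The other 3 called members, named after their values were seen, were the co-chaperone PTGES3, at 0.20, the acetyltransferase CREBBP, at -0.29, and the Mediator subunit MED1, at -0.22. These proteins serve many other pathways.

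Of 19 other genes reported as AHR targets, 2 rose, 7 fell and 10 did not pass (47.4% called, beside 15.4% of all genes), with a median of -0.062. Their median signal percentile was 73.2, so here too the share of all genes is not matched for brightness. STC2, a secreted glycoprotein that is also a target of the ATF4 stress response, read 8.22, 8.13 and 8.35 in DMSO and 6.96, 6.94 and 6.92 in AAPK. It was 2.45-fold lower (log2 change -1.29 ± 0.059, limma adjusted p = 8.21e-07), and its other 2 probe sets fell by 0.66 and 1.04. SOS1, a guanine nucleotide exchange factor for RAS, was 2.12-fold lower. Its 3 other probe sets ran from -0.79 to -0.20, and 2 of them passed. NEDD9, a scaffold of focal adhesions, fell by 0.58 on its brightest probe set. Its 3 other probe sets ran from -0.22 to -0.088, and 1 of them passed. The mean change over all NEDD9 probe sets was -0.25. The 2 genes that rose, named after their values were seen, were the drug transporter ABCG2, from 8.10 ± 0.081 (SD, n = 3) to 8.56 ± 0.017, a change of 0.45 (limma adjusted p = 2.46e-04), and the quinone reductase NQO1, from 10.26 ± 0.032 to 10.60 ± 0.0100, a change of 0.33 (limma adjusted p = 5.34e-04). NQO1 is also a target of NFE2L2 (NRF2), whose own transcript fell by 0.44. For ABCG2, NQO1 and NFE2L2 only the brightest probe set is given, and the effect of leaving out single arrays was not examined gene by gene. CYP2S1, a P450 gene that the receptor induces, was at -0.061 and did not pass (limma adjusted p = 0.448). UGT1A1 and UGT1A6, conjugating enzymes that AHR induces, were read only by 9 probe sets that each name several UGT1A genes. In a fit over all 49293 probe sets that are not controls, 0 of the 9 passed and 0 had an unadjusted p under 0.05, with limma log2 changes of -0.068 to 0.096. In that fit 6240 of the 49293 passed. The 9 probe sets read 3.50 to 7.32 on the arrays, several of them at the dim end, where a change may not show.

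Among 13 measured bHLH-PAS relatives of AHR and ARNT, 0 rose and 3 fell (23.1% called, beside 15.4% of all genes), with a median of -0.057; of the 3 calls, 2 were lost when single arrays were left out. EPAS1, the hypoxia-inducible factor HIF-2 alpha, fell by 0.29 (limma adjusted p = 0.00340), with -0.088 on its other probe set, which did not pass. The clock factor BMAL1 fell by 0.26 (limma adjusted p = 0.0181), with -0.077 and -0.061 on its other 2 probe sets, which did not pass, and -0.13 with the mean of its probe sets. Its call was lost without DMSO replicate 1 (adjusted p = 0.0707), DMSO replicate 3 (0.0613) or AAPK replicate 1 (0.0700). NPAS2, a partner of BMAL1, fell by 0.20 on its brightest probe set (limma adjusted p = 0.0308). The 3 other NPAS2 probe sets ran from -0.14 to 0.032. Only 1 of these 3 was below 0, and 0 passed as lower. The NPAS2 call was lost without each array but AAPK replicate 3 (adjusted p 0.0607 to 0.113) and with the mean of its probe sets (-0.072). Of 12 paralogs of TIPARP and ALDH3A1, 1 rose (8.33% called): ZC3HAV1, an antiviral zinc-finger protein of the same family as TIPARP, at 0.36 (limma adjusted p = 0.00113). The 3 other ZC3HAV1 probe sets ran from -0.027 to 0.32, and 1 of them passed as higher. ALDH3A2, ALDH3B1 and ALDH3B2 did not pass.

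The kynurenine pathway, which turns tryptophan into metabolites that bind AHR, had 1 gene higher and 1 lower of 11 measured, 18.2%, a share near the 15.4% of all genes called. KYNU, which encodes kynureninase and is itself induced by AHR in some cells, read 7.997, 7.86 and 8.05 in DMSO and 8.70, 8.79 and 8.84 in AAPK. It rose 1.75-fold (log2 change 0.80 ± 0.059, limma adjusted p = 1.69e-05), and its other 2 probe sets rose by 0.27 and 0.57. KYAT3, a kynurenine aminotransferase, fell by 0.25 (limma adjusted p = 0.00317). The dioxygenases IDO1, IDO2 and TDO2, which open the pathway, were at -0.079, -0.074 and 0.019 and did not pass.

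The other xenobiotic sensors gave no call. Of 10 measured genes of the nuclear receptor branch (NR1I3, the receptor CAR, its partner RXRA, and targets such as CYP3A4, CYP2B6 and ABCB1), 0 passed limma's threshold and 1, RXRA, had an unadjusted p under 0.05. Their log2 changes ran from -0.13 to 0.12. Of 20 other oxidation and conjugation genes, 2 rose and 0 fell (10% called, below the share of all genes): the microsomal glutathione transferase MGST1, from 10.48 to 10.79, a change of 0.31 (limma adjusted p = 0.00162), and the cytosolic GSTO1, at 0.26 (limma adjusted p = 0.00458). Over all 7 lists, 23 of 96 measured genes were called, 24.0%, beside 15.4% of all genes; 9 were higher and 14 lower.

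**Figure D4:**
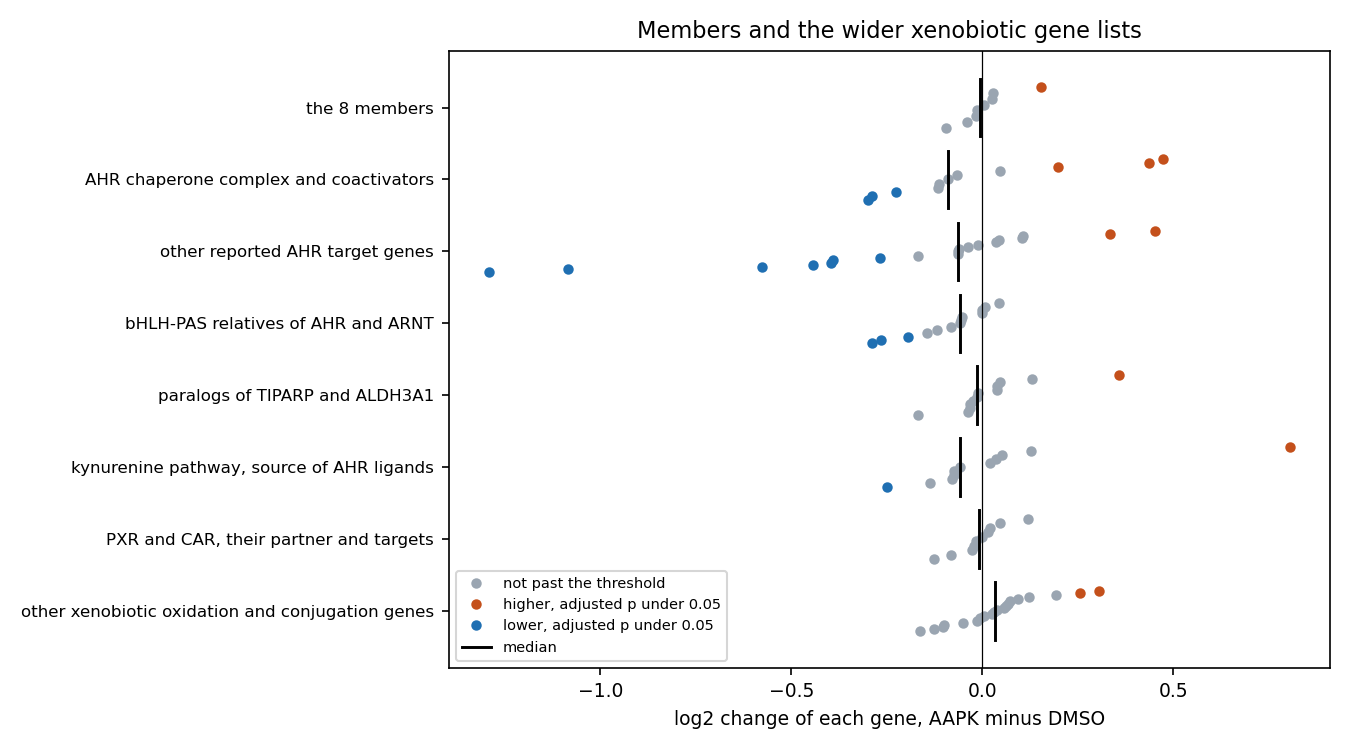
Log2 change, AAPK minus DMSO (x axis), of each measured gene on its brightest probe set, for the 8 members and 7 wider lists; colour shows genes past limma's adjusted threshold, and the black bar is the list's median. The members lie between -0.096 and 0.15, while the wider lists run from STC2 at -1.29 to KYNU at 0.80.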

How the data were processed

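RNA was extracted with Trizol and labelled with biotin by in vitro transcription, per the labels' protocols. The deposited values are the authors' log2 signals per probe set: the scale was read from the values (2.83 to 14.25), and the array quartiles are nearly equal, so they had been normalised between arrays; the method is not given in the sources used here. Such normalisation removes changes shared by most genes. Groups and replicate numbers come from the sample titles; separate cultures are not stated, so p-values cover only the variation among these samples, possibly technical. Precision is limited by 3 arrays per group.

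Gene names come from the table of the array platform. Of 49395 probe sets, 102 were controls, 44988 named 1 symbol, 1832 several and 2473 none. AAPK was compared with DMSO by limma 3.58.1 in R 4.3.3 (lmFit, eBayes, two-sided, group as the only term), with Benjamini-Hochberg adjustment, without a signal filter, over the 44988 probe sets for members and over 18132 genes (brightest probe set each) for lists. Intervals are 95% moderated intervals per probe set, not adjusted. Members and lists were chosen with earlier results of these data known; 96 of 112 list entries were measured. From each list the 3 largest changes past the threshold are named, and all 8 members. Tested on simulated data for this comparison (44988 probe sets, 200 changed), the fit recovered 24.0% of changes of 0.25, 76.0% of 0.5 and 98.0% of 1 on the log2 scale. With so few changed, the adjustment was stricter there than in the real data, where 12.9% of probe sets passed. These shares therefore do not measure how often the real fit finds a change of that size.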

Additional observations from a re-analysis of the deposited data

How the results depend on the processing

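The 22 probe sets of the 8 genes gave 1 call in the main fit. There were 2 with median centring, either signal filter (25th percentile or median) or an intensity trend, the second being TIPARP 11717399_a_at. Without each array in turn there were 0 to 1. Calls over all 44988 single-symbol probe sets moved too: 5824 in the main fit, 5959 with median centring and 6941 with the intensity trend. The filters gave 6206 of 33741 and 6047 of 22494 probe sets. Leaving out each array in turn gave 3970 to 5340. With 1 probe set per gene the single call, TIPARP, became 0 with quantile normalisation, the replicate block and probe set means, and was 0 (0 to 0) without any one array; with the probe set of largest spread 1 gene was called, ARNT at 0.21 in place of TIPARP. The wider lists had 20 to 27 calls, beside 23. Over all 18132 genes, calls numbered 2788 in the main fit and 1921 to 2450 without each array in turn. They numbered 2688 with quantile normalisation, 2099 with the replicate block and 2900 with probe set means. The replicate block (number as a term) left the ARNT call (limma adjusted p = 0.0406) and raised that of TIPARP to 0.0836 and of NPAS2 to 0.0563; same-numbered arrays did not deviate together (correlations 0.025, -0.20 and -0.035; 0 of 6 arrays matched their own number best).

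Signs turned for uncalled changes of AHR, AHRR, ARNT, CYP1A1, CYP1A2 and CYP1B1, and none passed the threshold at the turned sign. With quantile normalisation AHRR was at 0.0031 and -0.010, ARNT 11752225_a_at at 0.0039 and CYP1B1 11720410_s_at at -0.016. With median centring AHR 11751921_s_at was at 0.0054, ARNT 11752225_a_at at 0.0040 and CYP1A1 11754154_a_at at 0.0022. With array weights ARNT 11752225_a_at was at 0.0077 and AHR, per gene, at 0.0039. With the mean of probe sets AHRR was at -0.0095 and CYP1B1 at -0.048; with the largest spread AHR was at 0.0081, AHRR at -0.024 and CYP1B1 at -0.14. Without each array in turn, the ranges were -0.055 to 0.067 for AHR 11739680_a_at, -0.050 to 0.032 for AHR 11751921_s_at, -0.066 to 0.0040 for AHRR 11729561_a_at, -0.0017 to 0.0079 for AHRR 11754841_a_at, -0.020 to 0.060 for ARNT 11741381_a_at, -0.059 to 0.049 for ARNT 11752225_a_at, -0.12 to 0.045 for CYP1A2 11732107_a_at and -0.024 to 0.11 for CYP1B1 11745721_s_at. The cause was not tested. No CYP1 probe set passed under any of these settings. No detection call was available, so a transcript under a probe set's background would show no change here.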
